A study of Homo sapiens with 12 samples.

Results

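The genes described here are 8 core components of the PI3K and AKT pathway, taken from the 58381 genes of the table by their symbols. They are the catalytic subunits PIK3CA, PIK3CB, PIK3CD and PIK3CG, the regulatory subunits PIK3R1 and PIK3R5, the lipid phosphatase INPP5D (SHIP1) and the kinase AKT1. Each symbol matched 1 gene, and all 8 passed the filter on low counts that left 15944 genes to test. Polyadenylated RNA was sequenced from 4 sublines of HMC-1, a human mast cell line derived from mast cell leukemia, with 3 libraries per subline. HMC-1.1 carries the V560G change in the juxtamembrane part of the receptor tyrosine kinase KIT. HMC-1.2 carries V560G together with D816V in the kinase domain. HMC-1.3 clone 1 and HMC-1.3 clone 2 carry D816V alone, since V560G was returned to the normal codon in HMC-1.2 with CRISPR/Cas9, along with a silent change in the neighbouring codon. Each HMC-1.3 line grew from a single clone after puromycin selection and limiting dilution, so the KIT change cannot be told apart from the effects of editing, selection and cloning. The 3 libraries of a subline came from wells plated in parallel, and p-values therefore measure the spread between wells, which may be technical. The changes in KIT are single codons, so the count of KIT does not check the genotype. The comparisons set the subline with the double KIT change beside sublines that carry each change on its own. Per the paper, HMC-1.1 is a subline found within HMC-1 cultures and was not made by editing. It may therefore differ from the double-change subline by more than D816V, which was not tested. The same HMC-1.2 line is the reference each time, so features particular to that line cannot be told apart from the double KIT change.

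Class I PI3Ks are lipid kinases that bind activated receptors and make the membrane lipid PIP3. The class IA catalytic subunits p110alpha (PIK3CA), p110beta (PIK3CB) and p110delta (PIK3CD) pair with p85 regulatory subunits such as PIK3R1, which dock on phosphorylated tyrosines of receptors such as KIT. The class IB subunit p110gamma (PIK3CG) pairs with p101 (PIK3R5) and responds mainly to G protein-coupled receptors. PIP3 brings AKT kinases to the membrane, where they are activated and promote growth and survival. The lipid phosphatase SHIP1, which is largely restricted to blood cells and restrains mast cell activation, removes PIP3 by taking off a phosphate. All values below are RNA levels, and neither protein nor kinase activity was measured in these files.

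The libraries held 29225900 to 43181402 counts assigned to genes, and counts of the 8 genes ran from 270 for PIK3CD to 19406 for INPP5D in a single library. Mast cell markers were detected in every subline, with 7 to 8 of 11 at 1 FPKM or more and HDC, the enzyme that makes histamine, the highest. Their summed level stood apart in HMC-1.2, at 2257 to 2292 FPKM against 1550 to 1661 in the other sublines. The tryptase gene TPSAB1, whose reads can be shared with its near copy TPSB2, was lower than in HMC-1.2 by 14.3-fold, 21.2-fold and 16.8-fold for clone 1, clone 2 and HMC-1.1, TPSB2 was lower by 2.47-fold to 2.86-fold, and the carboxypeptidase gene CPA3 was higher by 2.3-fold to 3.42-fold, all of which passed the test used below. These markers moved with the comparisons that follow, and their part in the results was not tested. Markers of other blood and tissue cells stood at 1 FPKM or more for 1 to 2 of 12, with a summed level of 3.0 to 5.53 FPKM. FPKM is the count scaled by transcript length and library size, and allows levels of different genes to be set side by side. Because whole cultures were sequenced, fewer expressing cells and less RNA per cell cannot be told apart.

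INPP5D was the member that differed most between sublines. HMC-1.2 held 5.97-fold more of its RNA than HMC-1.3 clone 1, 4.34-fold more than HMC-1.3 clone 2 and 5.87-fold more than HMC-1.1. PIK3CA, PIK3CB and PIK3CD were also lower than in HMC-1.2 in all 3 comparisons, by 1.23-fold to 1.84-fold. PIK3R5 was the only member that was higher than in HMC-1.2 by the test, which it was for clone 2 and HMC-1.1. A gene is said to pass when its adjusted p is under 0.05 by the quasi-likelihood test of edgeR, adjusted over all 15944 genes after Benjamini and Hochberg.

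In HMC-1.3 clone 1 against HMC-1.2, 7 of the 8 members fell and PIK3R5 did not pass. Of all genes, 59.4% passed in either direction, 29.3% fell and 30.1% rose. INPP5D was the only member that also changed by over 1.5-fold, against 20% of all genes in either direction and 8.18% lower. In clone 2 against HMC-1.2, 5 members fell, PIK3R5 rose, and PIK3CG and PIK3R1 did not pass. There, 48.5% of all genes passed, 23.8% fell and 24.7% rose. INPP5D and PIK3CD fell by over 1.5-fold, where 16.5% of all genes changed by that much and 8.51% were lower. When HMC-1.1 was set against HMC-1.2, 5 members likewise fell, PIK3R5 rose, and PIK3CG and PIK3R1 did not pass, beside 53.7% of all genes that passed, 26.5% that fell and 27.2% that rose. INPP5D was the only one to change by over 1.5-fold, beside 17.6% of all genes in either direction and 7.52% lower. The median log2 fold change of the 8 members was -0.28, -0.21 and -0.21 for clone 1, clone 2 and HMC-1.1, whereas the median of all genes tested was 0.01, 0 and 0.01. These 3 comparisons share the HMC-1.2 libraries and are not independent of each other.

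**Figure D1:**
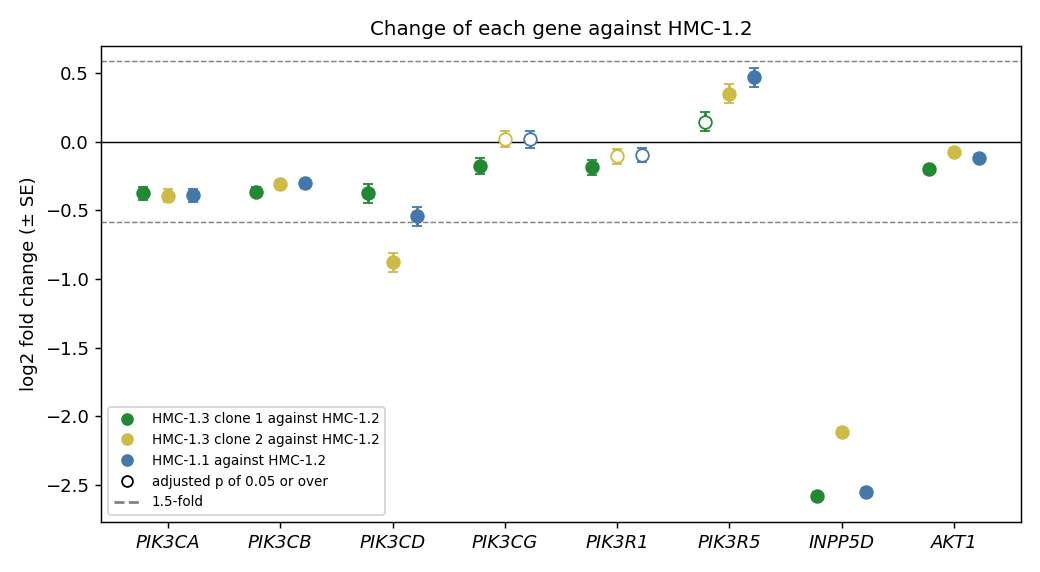
Log2 fold change (± SE) of each member in HMC-1.3 clone 1, HMC-1.3 clone 2 and HMC-1.1 against HMC-1.2, with filled points for an adjusted p under 0.05 and dashed lines at 1.5-fold. INPP5D lies between -2.58 and -2.12 in all 3 comparisons, while the other 7 members lie between -0.88 and 0.47.

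INPP5D encodes SHIP1, a phosphatase that removes a phosphate from PIP3 (ENSG00000168918.13, chromosome 2, 233059967 to 233207903 on GRCh38, plus strand). Its level was 131.8, 126.79 and 126.98 FPKM in the 3 libraries of HMC-1.2. It was 26.0, 25.13 and 25.27 FPKM in clone 1, and 29.6, 30.8 and 29.61 FPKM in clone 2. In HMC-1.1 it was 24.81, 26.98 and 25.04 FPKM. The HMC-1.2 libraries thus lay far above all 9 others, and clone 2 lay above clone 1 and HMC-1.1, which overlapped. The log2 fold change against HMC-1.2 was -2.58 (SE 0.03, adjusted p = 1e-19) for clone 1, -2.12 (SE 0.03, adjusted p = 1.1e-18) for clone 2 and -2.55 (SE 0.03, adjusted p = 1.1e-19) for HMC-1.1. Among the 15944 genes tested, ordered from the lowest fold change, INPP5D stood at place 236, 342 and 246 in these comparisons. Clone 2 exceeded HMC-1.1 by 0.43 on the log2 scale (SE 0.03, adjusted p = 5.2e-09) and clone 1 was 0.46 below clone 2 (log2 difference -0.46, SE 0.03, adjusted p = 1.4e-09). Clone 1 and HMC-1.1 did not differ detectably (log2 difference -0.03, SE 0.03, adjusted p = 0.6).

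The transcript length that RSEM attributed to INPP5D, which follows from the ratio of counts to FPKM, also differed between sublines. It was 4002 to 4077 bases in HMC-1.2 and 3997 to 4103 bases in clone 2. It was shorter in clone 1, at 3484 to 3585 bases, and in HMC-1.1, at 3390 to 3666 bases. Clone 2 and HMC-1.2 therefore shared the longer estimate although their levels differed by over 4-fold on counts. Per length the gap of clone 2 narrowed: with limma on log2(FPKM + 1) it exceeded HMC-1.1 by 0.22 and clone 1 by 0.23 on the log2 scale, against 0.43 and 0.46 on counts. The mix of transcripts behind the estimate was not analysed here.

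**Figure D2:**
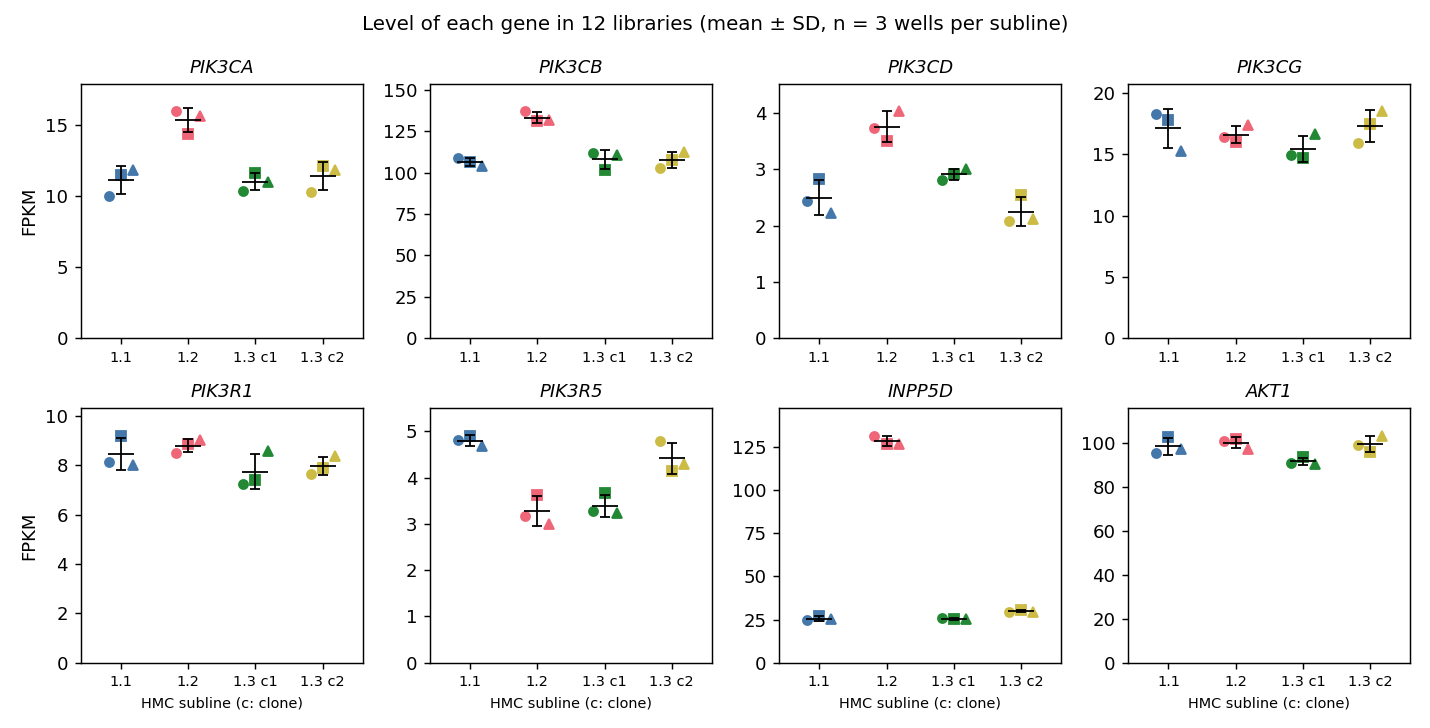
FPKM of each member in the 12 libraries, by subline (1.1, 1.2 and the clones c1 and c2 of 1.3), with circles, squares and triangles for replicates 1 to 3 and black bars for the mean ± SD; each panel has its own linear axis from 0. INPP5D averages 128.5 FPKM in HMC-1.2 and 25.5 to 30.0 in the other sublines, whereas PIK3CG and PIK3R1 overlap across sublines.

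The RefSeq promoter windows of the members, each reaching from 250 bases before an annotated start to 50 bases after it, were searched for 7 short motifs of factors active in blood cells on both strands. INPP5D has 1 window in the table, and it holds the ETS motif AGGAAGT at 2 places, beginning 62 and 12 bases before the start. PIK3CG has 1 window with 3 places for the same motif and 1 for the GATA motif AGATAA. The first of 3 listed windows of PIK3CD holds no ETS match and 1 match to the C/EBP motif TTGCNNAA. These windows are shown because INPP5D and PIK3CD were the members that changed by over 1.5-fold and PIK3CG is the other member with ETS matches. Capitals mark the matches of all 7 motifs, and the sequences are from RefSeq on GRCh38.p14, read along the gene.
INPP5D, chr2:233060092-233060391, plus strand: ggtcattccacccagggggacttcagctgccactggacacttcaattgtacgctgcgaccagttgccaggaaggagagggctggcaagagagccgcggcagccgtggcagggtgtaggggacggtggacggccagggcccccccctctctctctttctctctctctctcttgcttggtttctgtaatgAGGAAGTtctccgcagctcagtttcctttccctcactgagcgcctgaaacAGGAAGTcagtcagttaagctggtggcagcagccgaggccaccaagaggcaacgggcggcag
PIK3CG, chr7:106865229-106865528, plus strand: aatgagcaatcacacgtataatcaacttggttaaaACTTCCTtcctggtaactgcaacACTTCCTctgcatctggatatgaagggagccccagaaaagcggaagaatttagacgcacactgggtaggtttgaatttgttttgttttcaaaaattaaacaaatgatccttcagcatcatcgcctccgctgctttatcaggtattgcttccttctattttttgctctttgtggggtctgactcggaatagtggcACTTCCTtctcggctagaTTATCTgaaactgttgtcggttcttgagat
PIK3CD, chr1:9651481-9651780, plus strand: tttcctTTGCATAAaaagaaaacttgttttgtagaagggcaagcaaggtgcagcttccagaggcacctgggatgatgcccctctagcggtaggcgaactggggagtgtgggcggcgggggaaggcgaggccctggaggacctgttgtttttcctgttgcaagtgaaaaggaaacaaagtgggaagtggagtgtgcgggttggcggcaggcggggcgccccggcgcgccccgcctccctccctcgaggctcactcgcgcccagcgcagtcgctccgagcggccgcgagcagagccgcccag
Of all 35116 windows of this length, 8.24% hold AGGAAGT and 10.3% hold AGATAA, so matches are common, and 10.5% hold TTGCNNAA. Among the 16 windows of the 8 members, no STAT motif (TTCNNNGAA, 7.66% of all windows) and no AP-1 motif (TGANTCA, 7.71%) was found. The window of PIK3CA holds 1 match to the FOXO motif TGTTTAC (3.42%), and the third window of PIK3CD holds 1 match to the RUNX motif TGTGGT (13.1%). That window of PIK3CD also holds 1 GATA match and 1 C/EBP match. The second windows of PIK3R1 and PIK3R5 each hold 1 GATA match. A match describes letters in a window and was not tested as a binding site.

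Among the class IA catalytic genes, PIK3CB was the most abundant (ENSG00000051382.8, chromosome 3, 138652698 to 138834928, minus strand). It encodes p110beta. Its level was 137.38, 130.99 and 131.73 FPKM in HMC-1.2, against 112.07, 101.51 and 110.93 in clone 1. It was 102.94, 107.56 and 112.74 FPKM in clone 2 and 109.14, 106.56 and 103.94 in HMC-1.1. All HMC-1.2 libraries were above all others, and the other 3 sublines overlapped. The log2 fold change against HMC-1.2 was -0.37 (SE 0.03, adjusted p = 4.1e-08) for clone 1, -0.31 (SE 0.03, adjusted p = 4.3e-07) for clone 2 and -0.30 (SE 0.03, adjusted p = 5.2e-07) for HMC-1.1.

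PIK3CA, which encodes p110alpha, was likewise highest in HMC-1.2, at a lower level (ENSG00000121879.4, chromosome 3, 179148114 to 179240093, plus strand). It gave 16.03, 14.4 and 15.64 FPKM in HMC-1.2 and 10.41, 11.62 and 11.02 FPKM in clone 1. Clone 2 had 10.32, 12.16 and 11.83 FPKM and HMC-1.1 had 10.01, 11.54 and 11.84 FPKM. Again only HMC-1.2 stood apart from the rest. The log2 fold changes were -0.38 (SE 0.05, adjusted p = 4.3e-06), -0.39 (SE 0.05, adjusted p = 3.5e-06) and -0.39 (SE 0.05, adjusted p = 3.4e-06) in clone 1, clone 2 and HMC-1.1. PIK3CA has a partial copy elsewhere in the genome with which reads can be shared, and it overlaps KCNMB3 on the opposite strand, a gene with 31.3 to 109.2 counts per library.

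PIK3CD, which encodes p110delta, the class IA form best known from leukocytes, was the least abundant catalytic gene (ENSG00000171608.15, chromosome 1, 9629889 to 9729114, plus strand). It had 3.74, 3.5 and 4.04 FPKM in HMC-1.2 and 2.81, 2.92 and 3.0 FPKM in clone 1. It had 2.09, 2.54 and 2.12 FPKM in clone 2 and 2.43, 2.83 and 2.23 FPKM in HMC-1.1. HMC-1.2 was above all other libraries, and clone 2 was below clone 1. The log2 fold change against HMC-1.2 was -0.38 (SE 0.07, adjusted p = 0.00014) for clone 1, -0.88 (SE 0.07, adjusted p = 1.3e-08) for clone 2 and -0.54 (SE 0.07, adjusted p = 3.7e-06) for HMC-1.1. Clone 1 exceeded clone 2 by 0.50 on the log2 scale (SE 0.07, adjusted p = 1.6e-05). Clone 2 was below HMC-1.1 on counts (log2 difference -0.34, SE 0.07, adjusted p = 0.0014), but limma on log2(FPKM + 1) did not call this difference (-0.11, adjusted p = 0.42), nor did limma on log2(FPKM + 0.1) (-0.14, adjusted p = 0.43), nor was the fall in clone 2 against HMC-1.2 over 1.5-fold on that scale (-0.55). The offset of 1 understates changes of low genes, and with 0.1 this fall was -0.72. The antisense gene PIK3CD-AS2 lies within the gene on the opposite strand, with 268 to 495 counts per library, and its log2 fold change was 0.33 (adjusted p = 0.000323) for clone 1, -0.42 (adjusted p = 6.08e-05) for clone 2 and 0 for HMC-1.1 (adjusted p = 0.991). CLSTN1 also overlaps PIK3CD on the opposite strand, with 3487 to 5892 counts per library and log2 fold changes of -0.09 (adjusted p = 0.0329), 0.13 (adjusted p = 0.00681) and -0.06 (adjusted p = 0.153). The library kit keeps strand, but the strand setting used in counting was not given in the sources used here, and the part of opposite-strand reads in the PIK3CD count was not tested.

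PIK3CG, which encodes p110gamma, held a nearly even level (ENSG00000105851.10, chromosome 7, 106865278 to 106908980, plus strand). HMC-1.2 had 16.46, 16.01 and 17.4 FPKM, and clone 1 had 14.97, 14.71 and 16.66 FPKM. Clone 2 had 15.93, 17.45 and 18.56 FPKM and HMC-1.1 had 18.29, 17.79 and 15.29 FPKM. The libraries of all 4 sublines overlapped on FPKM, while on the counts tested those of clone 1 lay below those of HMC-1.2 and clone 2. On counts PIK3CG fell in clone 1 against HMC-1.2 (log2 fold change -0.18, SE 0.06, adjusted p = 0.015), which limma on log2(FPKM + 1) did not call (adjusted p = 0.29), nor edgeR without clone 1 replicate 2 (adjusted p = 0.053). It did not change detectably in clone 2 (0.02, SE 0.06, adjusted p = 0.84) or in HMC-1.1 (0.02, SE 0.06, adjusted p = 0.84).

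The summed level of the 4 catalytic genes was 169.1 ± 4.36 FPKM (SD, n = 3) in HMC-1.2. The sums for clone 1, clone 2 and HMC-1.1 were 137.5 ± 5.91, 138.7 ± 7.04 and 137.3 ± 3.51. PIK3CB made up most of this sum in every library, with group means of 77.6% to 78.9%. The share of PIK3CG was 9.83% ± 0.427 in HMC-1.2, 11.2% ± 0.546 in clone 1, 12.5% ± 0.322 in clone 2 and 12.5% ± 0.864 for HMC-1.1, and HMC-1.2 lay below all other libraries. PIK3CA held 8.03% to 9.08% and PIK3CD 1.62% to 2.22% of the sum as group means. With 3 libraries against 3, the exact two-sided permutation test cannot give a p below 0.1. The higher PIK3CG share reached that limit in all 3 comparisons with HMC-1.2 (exact permutation p = 0.1, adjusted p = 0.229 over 48 tests of shares and ratios), so no share passed.

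The balance of phosphatase to kinase RNA differed more. INPP5D RNA per unit of the summed catalytic RNA was 0.76 in HMC-1.2, and 0.185, 0.216 and 0.186 for clone 1, clone 2 and HMC-1.1, as geometric means of 3 libraries. On the log2 scale this ratio was lower than in HMC-1.2 for clone 1 (difference -2.04), clone 2 (-1.81) and HMC-1.1 (-2.03), with no overlap of libraries (exact two-sided permutation p = 0.1, the smallest possible, adjusted p = 0.229).

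**Figure D3:**
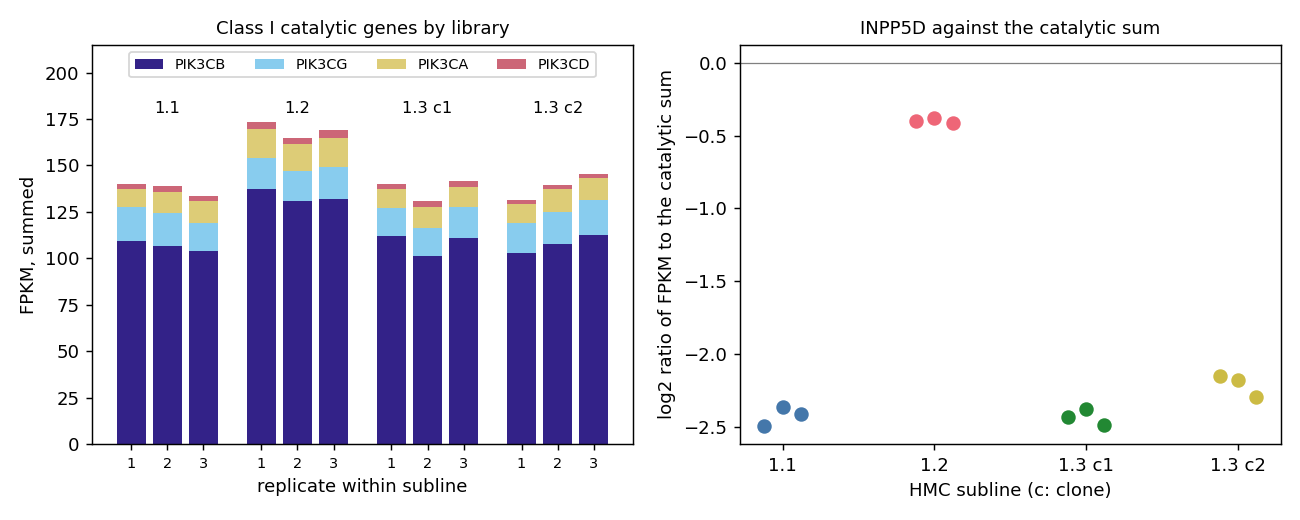
Left, FPKM of the 4 class I catalytic genes stacked for each of the 12 libraries; right, log2 ratio of INPP5D to that sum, with 1 point per library. The sum is highest in HMC-1.2, and INPP5D lies near the sum there (-0.40 on the log2 scale) and between -2.43 and -2.21 in the other sublines as group means.

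PIK3R1, which encodes the p85alpha regulatory subunit and its shorter forms, differed little between sublines (ENSG00000145675.14, chromosome 5, 68215740 to 68301821, plus strand). It gave 8.51, 8.86 and 9.01 FPKM in HMC-1.2 and 7.25, 7.42 and 8.58 FPKM in clone 1. Clone 2 had 7.64, 7.9 and 8.39 FPKM and HMC-1.1 had 8.15, 9.21 and 8.03 FPKM. On FPKM the highest library of clone 1 exceeded the lowest of HMC-1.2, but on the counts tested all libraries of the other sublines lay below those of HMC-1.2. PIK3R1 fell in clone 1 on counts (log2 fold change -0.19, SE 0.05, adjusted p = 0.0057), although limma on log2(FPKM + 1) did not call it (adjusted p = 0.078). Its log2 fold change was -0.11 (SE 0.05, adjusted p = 0.11) in clone 2 and -0.10 (SE 0.05, adjusted p = 0.13) in HMC-1.1.

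PIK3R5, which encodes the p101 partner of p110gamma, was ordered the other way, lowest in HMC-1.2 and highest in HMC-1.1 (ENSG00000141506.13, chromosome 17, 8878911 to 8965712, minus strand). Its level was 3.18, 3.63 and 3.0 FPKM in HMC-1.2 and 3.28, 3.66 and 3.23 FPKM in clone 1, which overlapped on FPKM. It was 4.8, 4.15 and 4.29 FPKM in clone 2 and 4.81, 4.91 and 4.68 FPKM in HMC-1.1, above both of the former. On the counts tested, all libraries of clone 1 lay above those of HMC-1.2. The transcript length that RSEM attributed to PIK3R5 was 3873 to 4051 bases in clone 1 and 3331 to 3863 in HMC-1.2. It was 3072 to 3753 bases in clone 2 and 3399 to 3547 in HMC-1.1. The log2 fold change against HMC-1.2 was 0.15 (SE 0.07, adjusted p = 0.087) for clone 1, 0.35 (SE 0.07, adjusted p = 0.00048) for clone 2 and 0.47 (SE 0.07, adjusted p = 1.9e-05) for HMC-1.1. Clone 1 was below HMC-1.1 (log2 difference -0.33, SE 0.07, adjusted p = 0.003) and below clone 2 (-0.20, SE 0.07, adjusted p = 0.019). The difference between the clones was not called without clone 1 replicate 1 (adjusted p = 0.055), clone 1 replicate 3 (0.063) or clone 2 replicate 2 (0.063). PIK3R5 per unit of PIK3CG was 0.196 in HMC-1.2, 0.22, 0.255 and 0.281 for clone 1, clone 2 and HMC-1.1, as geometric means.

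AKT1, the kinase recruited by PIP3, was abundant and nearly even (ENSG00000142208.15, chromosome 14, 104769349 to 104795751, minus strand). HMC-1.2 had 101.07, 101.95 and 97.36 FPKM, and clone 1 had 90.82, 93.52 and 90.33 FPKM. Clone 2 had 99.19, 96.09 and 103.36 FPKM and HMC-1.1 had 95.19, 102.79 and 97.13 FPKM. The libraries of clone 1 lay below all others, and those of the remaining sublines overlapped on FPKM. On the counts tested, the libraries of clone 2 and HMC-1.1 also lay below those of HMC-1.2. AKT1 fell in clone 1 (log2 fold change -0.20, SE 0.03, adjusted p = 1.5e-05) and for HMC-1.1 (-0.12, SE 0.03, adjusted p = 0.0026) against HMC-1.2, the latter not called by limma on log2(FPKM + 1) (adjusted p = 0.6). The call in clone 2 was marginal (-0.07, SE 0.03, adjusted p = 0.045) and was lost on leaving out any of 10 of the 12 libraries in turn, with adjusted p from 0.06 to 0.22.

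The single-change sublines were also compared with each other. Against HMC-1.1, clone 1 was lower in PIK3R5 and PIK3CG (log2 difference for PIK3CG -0.20, SE 0.06, adjusted p = 0.028), and 6 members did not pass, beside 18.7% of all genes that passed and 1.01% that changed by over 1.5-fold. The PIK3CG call was lost on leaving out replicate 1 (adjusted p = 0.11) or 2 (0.084) of HMC-1.1, or replicate 1 (0.08) or 2 (0.098) of clone 1. Against HMC-1.1, clone 2 was higher in INPP5D and lower in PIK3CD, and 6 members did not pass, beside 36% of all genes that passed and 8.19% that changed by over 1.5-fold. Clone 1 against clone 2 passed for 5 members, of which PIK3CD was higher and INPP5D, PIK3CG, PIK3R5 and AKT1 were lower in clone 1. The log2 difference was -0.13 for AKT1 (SE 0.03, adjusted p = 0.0016) and -0.20 for PIK3CG (SE 0.06, adjusted p = 0.01), the latter not called by limma on log2(FPKM + 1) (adjusted p = 0.13). Of all genes, 50.2% passed between the clones, 25.5% higher and 24.7% lower in clone 1, and 12.6% changed by over 1.5-fold. None of the 8 members changed by over 1.5-fold in these 3 comparisons, with the largest fold 1.42 for PIK3CD between the clones.

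The genes around INPP5D were compared in the same way. The 22 other tested genes that start within 2 Mb of its start had a median log2 fold change of -0.12, -0.09 and 0 for clone 1, clone 2 and HMC-1.1. Of these, 2 rose and 10 fell in clone 1, 2 rose and 6 fell in clone 2, and 2 rose and 7 fell in HMC-1.1. Among all genes tested, 30.1%, 24.7% and 27.2% rose and 29.3%, 23.8% and 26.5% fell, in the same order. The next tested gene downstream, ATG16L1, starts 150 kb away and had log2 fold changes of -0.38, -0.05 and -0.29. NMUR1, 1537 kb upstream and singled out after its values were seen, was counted 13 to 15 times in each library of HMC-1.2 and 0 to 3 in each other subline, too few for a firm fold. NGEF, 181 kb upstream and likewise singled out, showed 11 to 18 counts in HMC-1.2, 2 to 5 in clone 2, 26 to 30 in clone 1 and 18 to 35 in HMC-1.1. The neighbours of the other 7 members had medians between -0.14 and 0.13.

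**Figure D4:**
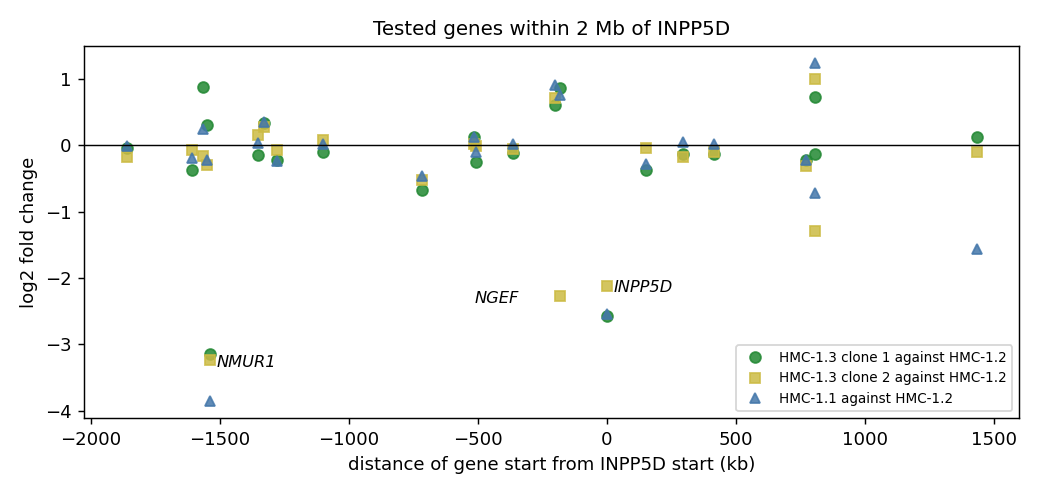
Log2 fold change of INPP5D and the 22 other tested genes within 2 Mb, against the distance of their starts in kb, for the 3 comparisons with HMC-1.2. The medians of the neighbours are -0.12, -0.09 and 0, and NMUR1, fitted from at most 15 counts per library, is the only other gene below -2 in all 3 comparisons.

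The genes whose pattern over the 12 libraries was most like that of INPP5D, by the root mean square difference of centred log2 CPM (counts scaled to library size) among 10879 candidates, were EVI2B (0.135), TNFAIP8 (0.135) and CEBPA (0.154). CEBPA encodes a transcription factor of myeloid cells. EVI2B gave 18.8 ± 0.477 CPM in HMC-1.2 and 2.57 to 3.51 CPM as group means in the others. TNFAIP8 gave 40.4 ± 1.16 CPM in HMC-1.2 and 7.28 to 10.5 CPM in the others, and CEBPA 71.1 ± 3.14 CPM and 11.2 to 14.9 CPM. Their group means ranged over 2.46 to 2.83 on the log2 scale, beside 2.58 for INPP5D. These 3 genes were chosen by this likeness, so the high level in HMC-1.2 and the similar range follow from the choice. The nearest to PIK3CD, with a range of 0.88, included SEMA4D (0.062) and ATP2A3 (0.072). The nearest to PIK3R5, with a range of 0.47, were MYC (0.067), CITED2 (0.076) and MAGEH1 (0.082). The ranges of the other 5 members were 0.19 to 0.39.

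Another 79 genes of the pathway were listed by role, of which ARAP3, IRS1, PDK4, PIK3C2G and S1PR1 did not pass the filter on low counts. For clone 1, clone 2 and HMC-1.1 against HMC-1.2, 30.1%, 24.7% and 27.2% of all genes rose and 29.3%, 23.8% and 26.5% fell. Among the 9 other PI3K subunits and regulators tested, 2 rose and 2 fell in clone 1, 6 rose and 1 fell in clone 2, and 3 rose and 1 fell in HMC-1.1, each set against HMC-1.2, with medians of 0.01, 0.24 and 0.11. PIK3R2, which encodes p85beta, rose in all 3 (log2 fold change 0.63, 0.79 and 0.69), as did the class II enzyme PIK3C2B (0.87, 0.86 and 0.98). PIK3C3, the class III enzyme, rose in clone 2 (0.48), and PIK3IP1, an inhibitor of p110, fell in clone 2 (-0.84). Of the 8 other AKT genes and AKT-activating kinases, 2 rose and 5 fell in clone 1, 3 rose and 3 fell in clone 2, and 1 rose and 3 fell in HMC-1.1, with medians of -0.18, -0.08 and -0.06. RICTOR, the defining subunit of the mTOR complex that phosphorylates AKT, fell in all 3 (-1.01, -0.78 and -0.81). AKT2 fell in clone 1 (-0.30) and HMC-1.1 (-0.14), and MLST8, an mTOR complex subunit, rose in clone 1 (0.28) and fell in clone 2 (-0.13). On log2(FPKM + 1), limma did not call AKT2 for HMC-1.1 (adjusted p = 0.082) or MLST8 for clone 2 (adjusted p = 0.07).

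Of the 9 other phosphoinositide and AKT phosphatases, 4 rose and 2 fell in clone 1, 2 rose and 1 fell in clone 2, and 3 rose and 0 fell in HMC-1.1, with medians of 0.17, 0.01 and 0.15. Beside this list and the adaptors below, 30.1%, 24.7% and 27.2% of all genes rose and 29.3%, 23.8% and 26.5% fell. INPP4B, which acts on the product of SHIP1, rose in all 3 (0.85, 0.63 and 0.69), in contrast to INPP5D. The AKT phosphatase PHLPP1 rose in clone 2 (0.63). It also passed as slightly lower in clone 1, which DESeq2 did not call (log2 fold change -0.21, adjusted p = 0.083). PHLPP2 fell in clone 1 (-0.47), while INPP4A rose in clone 1 (0.23) and HMC-1.1 (0.24). Of the 8 receptor adaptors tested, 1 rose and 5 fell in clone 1, 1 rose and 6 fell in clone 2, and 1 rose and 5 fell in HMC-1.1, with medians of -0.24, -0.26 and -0.26. GAB3, a docking protein that binds p85, fell by over 1.5-fold in all 3 (-1.83, -0.85 and -1.92), as did DOK2, an adaptor of blood cells (-1.27, -0.74 and -1.39). GAB1 rose in all 3 (0.84, 0.72 and 1.05), the HMC-1.2 level being 0.767 ± 0.272 FPKM (SD, n = 3), but limma did not call it for clone 2 on log2(FPKM + 1) (0.28, adjusted p = 0.12) or log2(FPKM + 0.1) (0.55, adjusted p = 0.086). SHC1 fell in all 3 (-0.36, -0.18 and -0.23).

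Of the 14 AKT substrates and mTOR complex genes, 3 rose and 7 fell in clone 1, 3 rose and 2 fell in clone 2, and 4 rose and 3 fell in HMC-1.1, with medians of -0.12, 0 and -0.02. Beside this list and the effectors below, 30.1%, 24.7% and 27.2% of all genes rose and 29.3%, 23.8% and 26.5% fell. EIF4EBP1, a repressor of translation that mTORC1 inactivates, rose in clone 1 (0.87) and HMC-1.1 (0.58), where FOXO3, a transcription factor that AKT holds out of the nucleus, also rose (0.31 and 0.39). AKT1S1 and GSK3A, both AKT substrates, fell in clone 1 (-0.45 and -0.32) and HMC-1.1 (-0.24 and -0.23). They also passed as slightly lower in clone 2 (-0.1 and -0.09), which limma on log2(FPKM + 1) did not call (adjusted p = 0.52 and 0.13). Of the 15 PIP3-binding effectors tested, 8 rose and 4 fell in clone 1, 8 rose and 4 fell in clone 2, and 7 rose and 4 fell in HMC-1.1, with medians of 0.25, 0.30 and 0.14. BTK, a kinase of the TEC family that PIP3 recruits, averaged 140.2 FPKM in HMC-1.2 and rose in all 3, to 359.2 FPKM for clone 1, 342.3 for clone 2 and 347.7 for HMC-1.1, whereas its relative TEC fell in all 3 (-1.28, -1.21 and -1.13). PREX1, a PIP3-dependent exchange factor for Rac, rose (0.84, 0.96 and 0.88), and so did the phospholipase PLCG2 (0.88, 0.62 and 0.78).

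Genes that FOXO factors are known to induce, which AKT activity restrains, were counted last. Of the 13 tested, 9 rose and 1 fell in clone 1 and 9 rose and 1 fell in HMC-1.1, with medians of 0.44 and 0.43, while 6 rose and 4 fell in clone 2, with a median of -0.08. Of all genes, 30.1%, 27.2% and 24.7% rose and 29.3%, 26.5% and 23.8% fell in these comparisons, in the same order. Between the clones, 8 of the 13 were higher and 3 were lower in clone 1, with a median difference of 0.51, beside 25.5% higher and 24.7% lower among all genes. SESN1 (0.87, 1.11 and 1.18), GADD45A (0.98, 0.82 and 0.68) and KLF2 (1.19, 0.41 and 1.19) rose in all 3 comparisons. TXNIP rose in clone 1 (1.00) and HMC-1.1 (0.15) but fell in clone 2 (-0.63).

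**Figure D5:**
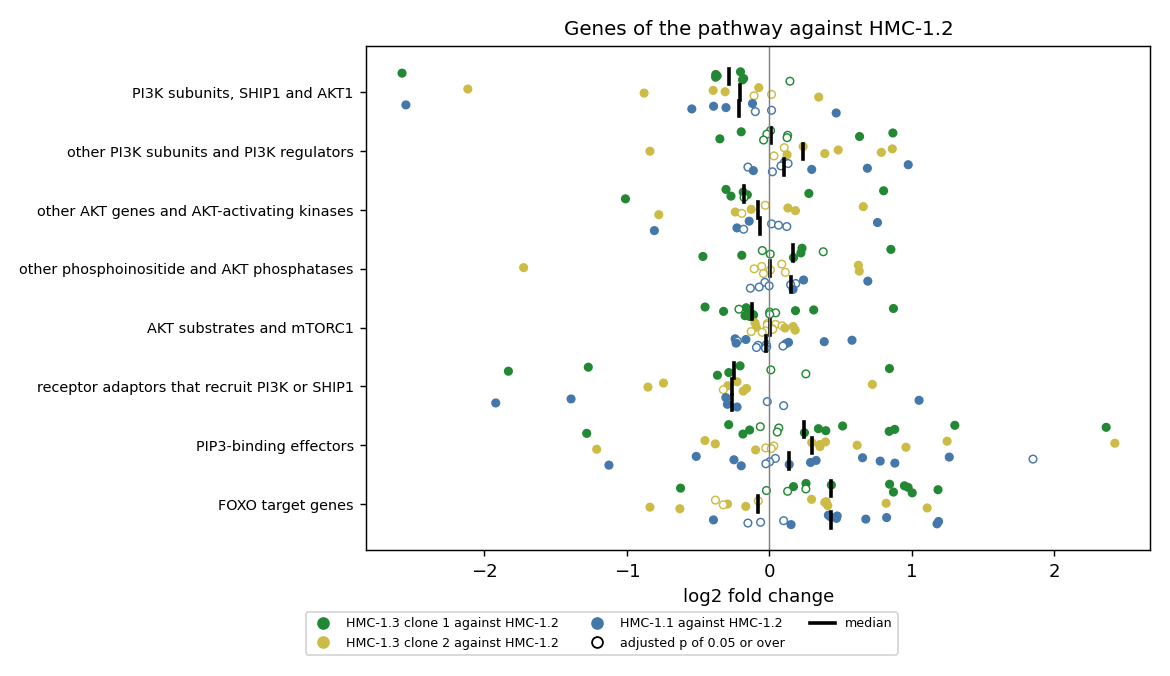
Change of each tested gene of the 8 members (top) and of the other lists from its level in HMC-1.2, on the log2 scale, with filled points for an adjusted p under 0.05 and black bars for list medians. The medians of the 8 members are -0.28, -0.21 and -0.21, and the FOXO target genes have medians of 0.44 for clone 1, 0.43 for HMC-1.1 and -0.08 for clone 2.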

How the data were processed

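RNA was isolated from 12 wells, 3 per subline, and libraries were made with a stranded kit from polyadenylated RNA. Per the study's methods, the authors used cutadapt 2.10 for trimming, STAR 2.5.3 for alignment (hg38) and RSEM 1.3.0 for gene levels. The deposited table of expected counts holds RSEM estimates, of which 7.39% were not whole, and these were rounded. The deposited FPKM values are RSEM's levels per transcript length and were used for levels, shares and ratios. Groups were taken from the sample labels. All 12 count columns matched the FPKM column of the same label best.

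Counts were tested with edgeR 4.0.16 in R 4.3.3 (TMM, filterByExpr, quasi-likelihood test, all 4 sublines in 1 fit, Benjamini-Hochberg adjustment). Shares and ratios were tested with exact permutation tests in SciPy 1.17.1. DESeq2 1.42.0, limma 3.58.1, other filters, scalings and terms, and leaving out each library were alternatives. On counts simulated for HMC-1.3 clone 1 against HMC-1.2 over 15944 genes, edgeR called 191 of 200 changed genes and 17 others. Replicates of a subline differed by more than sampling noise (chi-square per degree of freedom 2.9 to 8.2). Gene positions follow GENCODE (GRCh38, as in the files).

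The 8 members and all lists were chosen with earlier results of these data known. The other named genes of the pathway are from the up to 4 per list with the largest change in any comparison with HMC-1.2 among those that passed there and averaged 1 CPM or more. Genes most like a member were sought for the 3 members with the widest range of group means, among genes averaging 5 CPM or more. Results of some genes under these rules are not reported here. Other sequences of the members, such as proteins, were not used here.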

Additional observations from a re-analysis of the deposited data

Results flagged for a closer look

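The changes of the HMC-1.3 clones against HMC-1.2 differed for 5 of the 8 members, by the edgeR test of clone 1 against clone 2. Of all genes, 50.2% passed the same test, so this count is near the share of all genes. On the log2 scale, clone 1 minus clone 2 was 0.50 for PIK3CD and -0.46 for INPP5D. It was -0.20 for PIK3CG, -0.20 for PIK3R5 and -0.13 for AKT1. The PIK3CG difference was not called by limma on log2(FPKM + 1) (adjusted p = 0.13), and the PIK3R5 call was lost without some single libraries. The PIK3CD and INPP5D differences were smaller with limma on log2(FPKM + 1), at 0.27 and -0.23. The offset of 1 understates changes of low genes such as PIK3CD, so 0.27 does not give its difference per length alone.

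Among the 28 other genes chosen from the lists of the pathway by size of change, the clones differed with an adjusted p under 0.05 in 22 and by over 1.5-fold in 6, which are given here. Of all genes, 50.2% and 12.6% did so, and these 28 were chosen for large changes against HMC-1.2. Clone 1 minus clone 2 was 1.63 for TXNIP, 0.97 for PIK3IP1, 0.83 for EIF4EBP1 and 0.77 for KLF2. It was -0.98 for GAB3 and -0.82 for PHLPP1. Each clone is 1 line, and groups of 3 libraries are too small for a test of single outlying libraries.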

How the results depend on the processing

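The falls of INPP5D against HMC-1.2 ranged from -2.59 to -2.06 on the log2 scale over 23 alternatives in each comparison and passed in all of them. Of 759 values of the members' fold changes under the alternatives, 24 lost their call with edgeR's glmTreat, which tests against 1.5-fold and which members of a smaller fold could not pass, 20 under other settings and 18 with a library left out, 2 gained a call and 3 changed sign. These 3 were for PIK3CG, which without single libraries spanned -0.016 to 0.045 for clone 2 and -0.035 to 0.087 for HMC-1.1. It was -0.016 without HMC-1.3 clone 2 replicate 3, and -0.035 and -0.010 without HMC-1.1 replicate 1 and 2. Without HMC-1.3 clone 1 replicate 3, PIK3R1 passed in clone 2 (adjusted p = 0.042) and in HMC-1.1 (0.046). The 72 fold changes of other chosen genes of the pathway kept their direction in all 1656 values, and 83 lost their call, 36 of them with glmTreat.

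Genes changed by over 1.5-fold against HMC-1.2 numbered 3193, 2630 and 2803 for clone 1, clone 2 and HMC-1.1. With glmTreat they numbered 1932, 1612 and 1618, and with limma on log2(FPKM + 1) 1902, 1453 and 1514. On that last scale 1 member in place of 2 changed by over 1.5-fold in clone 2. For clone 1 against HMC-1.1, the counts over 1.5-fold were 161 by edgeR, 81 by DESeq2, 9 by glmTreat and 61 by limma on log2(FPKM + 1), while 2983 genes passed by edgeR, 1529 with log2(FPKM + 1) and 1508 with log2(FPKM + 0.1). In that comparison 1 member in place of 2 passed in both limma settings and in a fit of only the 2 sublines. For clone 2 against HMC-1.1, 1306 genes changed by over 1.5-fold by edgeR, 552 by glmTreat and 566 by limma on log2(FPKM + 1), and 1 member in place of 2 passed in both limma settings. Between the clones, the numbers were 2013, 837 and 969. The cause of these differences was not tested.

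When libraries were left out in turn, clone 1 against HMC-1.1 gave 1 to 3 members and 1962 to 3030 genes that passed, and 107 to 197 genes over 1.5-fold. The fewest genes that passed came without clone 1 replicate 1 (1962) and the fewest over 1.5-fold without clone 1 replicate 2 (107), and 1 member passed without either of these or HMC-1.1 replicate 1 or 2. The PIK3CB share in clone 1 minus HMC-1.2 was -0.245 percentage points and ran from -0.884 to 0.251, turning positive without HMC-1.2 replicate 2 (0.039) or clone 1 replicate 2 (0.251). No share or ratio could pass, since the exact test cannot go below 0.1.

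Replicate numbers did not pair the samples throughout: same-numbered deviations correlated from -0.238 to 0.456, and 15 of 36 best matches were with the own number. Deviations of replicate 1 correlated positively in all 6 pairs of sublines, at 0.139 to 0.23. The value of 0.456 was for replicate 3 of HMC-1.2 with clone 2. With the replicate number as a block, 7, 6 and 6 members passed against HMC-1.2 and 2, 2 and 5 in the other comparisons, and 9565, 7823 and 8640 genes passed against HMC-1.2, each within 1.5 times the count without it. Leaving out the 3 libraries described as resent, a term the sources used here do not explain and an alternative chosen after seeing the data, gave 7, 5 and 6 members against HMC-1.2. Depth limits PIK3CD and PIK3R5 most, with 270 to 645 counts per library.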
